A study of Homo sapiens with 17 samples.

Results

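The regions described here are the places where chromatin immunoprecipitation with sequencing (ChIP-seq) found the transcription factor CREB1 in LNCaP prostate cancer cells but not in the derived line LNCaP-abl. They number 3391 of the 21991 CREB1 peaks listed for LNCaP, or 15.4%. The sites were chosen by the peak calls themselves: each shares no base pair with any of the 27629 CREB1 peaks listed for LNCaP-abl (abl below). The other 18600 LNCaP peaks share at least 1 bp with an abl peak and are called shared sites, and 9196 abl peaks that touch no LNCaP peak are called abl-only sites. A list of 79242 FOXA1 peaks, mapped in abl alone, gives a readout that the choice of sites did not use.

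LNCaP, an established human line, is labelled androgen dependent and was kept in medium with 10% serum at passages 32 to 34. LNCaP-abl, labelled androgen independent, was kept at passages 62 to 64 in 10% serum that had been stripped of steroids with charcoal. The labels of these ChIP samples name no siRNA. RNA was sequenced from both lines 3 days after 40 nM of a control siRNA (siControl), or of an siRNA against CREB1 or FOXA1, in 5% charcoal-stripped serum, with 2 libraries in each of the 6 groups. Each line is 1 cell line at 1 range of passages, so the change of line cannot be told apart from that of passage and serum. CREB1 ChIP-seq has 1 peak list per line, so differences between the lists have no replicate check and carry no test.

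CREB1 binds short DNA sequences called cAMP response elements, often near gene starts, and recruits co-activators when protein kinase A or other kinases phosphorylate it. FOXA1 is a pioneer factor of the forkhead family that binds nucleosomal DNA at enhancers of luminal prostate cells. ChIP-seq peak lists report where reads piled up past a caller's threshold, so a site missing from a list can be unbound or bound below that threshold.

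Most LNCaP-only sites lay near the bottom of the LNCaP list. Their scores, as the authors' peak caller gave them, ran from 80.01 to 1068.35, with a median of 101.4, and the lowest score of the whole LNCaP list was also 80.01. Shared sites had a median score of 249.4 in the same list. The LNCaP-only sites were narrower as well, with a median width of 474 bp (quartiles 411 and 529) against 640 bp for shared sites. Together they covered 1653.8 kb. Since the calls chose the sites, these values describe the choice and are no evidence of a difference in binding strength.

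By deciles of score, the share of LNCaP peaks absent from abl fell from 48.5% in the lowest decile (1067 of 2200 peaks, scores 80.01 to 91.06) to 10.7% in the fifth decile and 2.46% in the seventh. In the top decile 1 peak of 2199 was absent from abl. Only 203 LNCaP-only sites, 5.99% of them, scored above the LNCaP list's median of 200.1. The abl list had the same shape at a higher level, with 78.7% of its lowest decile absent from LNCaP and 0.181% of its highest.

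**Figure D1:**
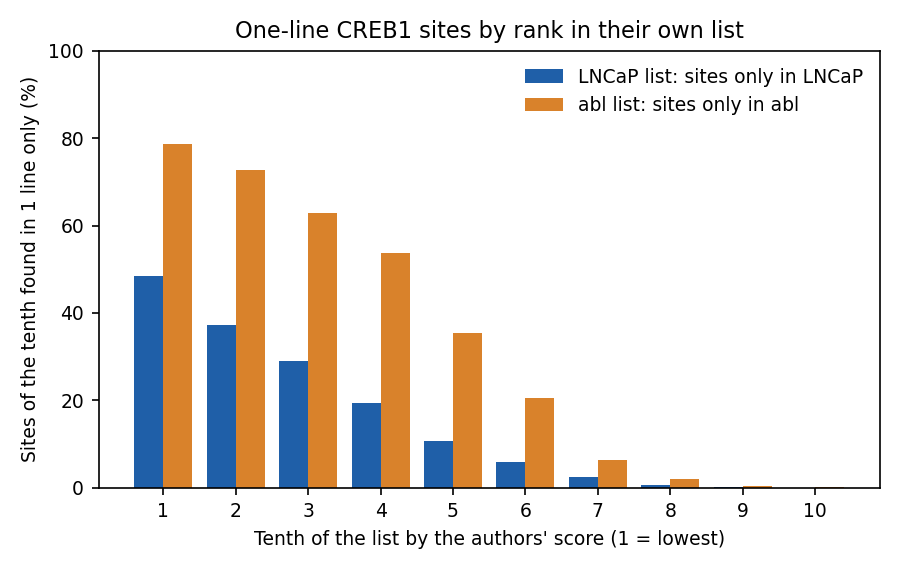
Share of peaks found in 1 line only (y axis, percent) for each decile of the LNCaP list (blue) and of the abl list (orange), ordered by the authors' score on the x axis. The blue bars fall from 48.5% in the lowest decile to 0.0455% in the highest, and the orange bars from 78.7% to 0.181%.

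Few LNCaP-only sites scored high. The highest, chr19:11456714-11457681 (hg19, as are all positions here), was 968 bp wide with a score of 1068.35, rank 2081 of the LNCaP list, and the nearest abl CREB1 peak lay 1.21 kb away. The next, chr16:2132029-2132713, scored 762.85 and lay 26.7 kb from an abl CREB1 peak. The site chr2:1690321-1691472 scored 746.1 and was 52.8 kb from one. Then came chr19:57350042-57351508 at 693.5, the widest of the 10 highest at 1467 bp, with 73.2 kb to the nearest abl CREB1 peak. None of these 4 sites touched an abl FOXA1 peak.

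The fifth, chr10:4700924-4701503, scored 672.53 and stood 133 kb from the nearest abl CREB1 peak. All 580 bp of it lay inside an abl FOXA1 peak, although that FOXA1 peak had a low score of 84.69. Of the 10 highest sites it was the only one that shared bases with FOXA1. The other 5 were chr19:58095026-58095671 at 560.61, chrX:129065215-129065870 at 553.22, chr10:1779433-1780116 at 540.82, chr19:3434859-3435594 at 539.95 and chr19:6502017-6502688 at 509.32. Their gaps to an abl CREB1 peak ran from 4.34 kb for the first of these to 368 kb for the chromosome 10 site.

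Chromosome 19 held 5 of these 10 sites. Above a score of 400, a limit set after the values were seen, 7 of 19 LNCaP-only sites (36.8%) were on chromosome 19, against 3.98% of all LNCaP-only sites and 9.16% of the 6583 shared sites above that score. In the same range 1 of 19 LNCaP-only sites (5.26%) and 32.6% of shared sites overlapped FOXA1. These shares rest on 19 sites and are imprecise.

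At the edge of the rule, the LNCaP-only site nearest to an abl CREB1 peak was chr6:34216062-34216537, 10 bp away with a score of 109.05. It was followed by chr2:89867150-89867750 at 13 bp and a score of 83.96, chr6:31514281-31514944 at 18 bp and 126.87, chr11:66624205-66624692 at 24 bp and 88.89, and chr7:96423940-96424685 at 38 bp and 94.68. Just outside the rule, chr1:236686210-236686950 shared 8 bp with an abl peak at a score of 95.66, and chr9:126440334-126440836 shared 13 bp at 99.93. The sites chr19:6021075-6021500, chr16:30032422-30032844 and chr5:132166004-132166654 shared 42, 68 and 72 bp at scores of 85.23, 103.3 and 384.78. Sites on either side of the limit thus had scores in the same range, apart from the last. Of the 5 just inside, 1 overlapped a FOXA1 peak (the chromosome 7 site, FOXA1 score 1736.51), and of the 5 just outside 3 did.

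Such borderline sites were few. An abl CREB1 peak lay within 100 bp of 32 LNCaP-only sites (0.944%), within 1 kb of 208 (6.13%) and within 10 kb of 880 (26%). The median gap was 28.9 kb with quartiles of 9.45 and 85.5 kb, and 34 sites (1%) were more than 1000 kb away. The median gap to an abl FOXA1 peak was 1.93 kb, and 65.1% of the sites had one within 10 kb. The CREB1 and FOXA1 gaps are not to be compared, since the choice of sites removed every overlap with abl CREB1 and the FOXA1 list is longer (79242 against 27629 peaks).

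**Figure D2:**
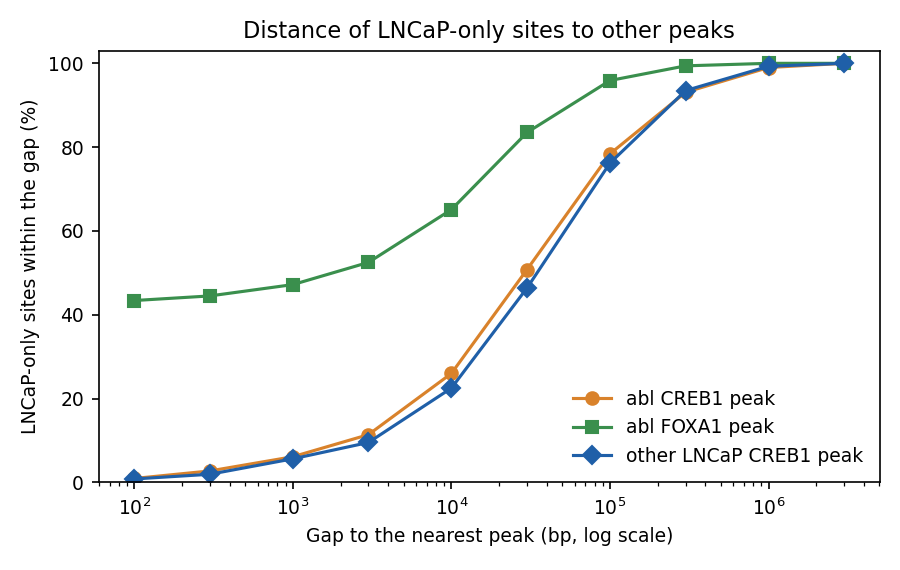
Share of the 3391 LNCaP-only sites (y axis, percent, cumulative) with another peak within the gap on the x axis (bp, log scale), for abl CREB1 peaks (orange), abl FOXA1 peaks (green) and other LNCaP CREB1 peaks (blue). The green line starts at 43.1%, the sites that overlap FOXA1, while the orange line starts at 0 because the choice of sites removed every overlap with abl CREB1.

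Bases were shared with an abl FOXA1 peak at 1460 LNCaP-only sites (43.1%), while 1931 (56.9%) shared none. These are places where FOXA1 was called in abl and CREB1 was called in LNCaP but not in abl; FOXA1 binding in LNCaP was not analysed here. The share was 41.2% at shared sites and 58.8% at abl-only sites. Over all sites, then, the share was slightly higher at LNCaP-only than at shared sites, and highest at abl-only sites.

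At like score the order of LNCaP-only and shared sites was reversed. In the lowest decile of the LNCaP list 44.2% of LNCaP-only sites and 54.5% of shared sites overlapped FOXA1. In the fourth decile the shares were 46% and 50.6%, in the sixth 23.1% and 39.8%, and in the seventh 16.7% and 33.4%. LNCaP-only sites had the lower share in all 7 deciles that held at least 50 of them. With shared sites weighted to the LNCaP-only sites' deciles, the shares were 43.1% and 51.9%, a difference of -8.89 percentage points. Among shared sites the FOXA1 share fell from 54.5% in the lowest decile to 30.4% in the eighth. It then stood at 32.1% in the ninth and 35.4% in the tenth. This change with score is what the weighting takes out.

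The abl list went the other way. There the one-sided sites had the higher FOXA1 share in 7 of 8 deciles with at least 50 of them, 58.8% against a weighted 53.5% for shared sites. All FOXA1 peaks came from abl, the line that shared and abl-only sites have in common and from which LNCaP-only sites are missing, and the part of this in the difference was not tested.

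**Figure D3:**
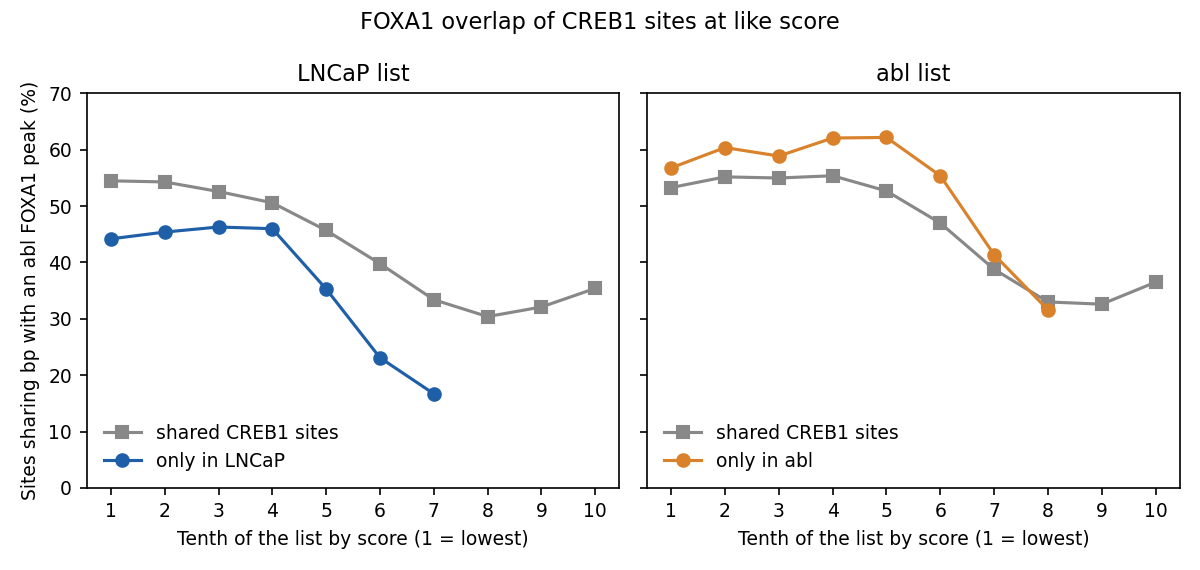
Share of CREB1 sites that share bases with an abl FOXA1 peak (y axis, percent) by decile of score (x axis), for the LNCaP list (left) and the abl list (right). Sites of 1 line are drawn where a decile holds at least 50; those only in LNCaP (blue) lie below shared sites (grey) in all 7 deciles drawn, at 44.2% and 54.5% in the lowest.

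Site width differed between the sets, since LNCaP-only sites had the lower median width in each of the 7 deciles that held at least 50 of them (422 against 454 bp in the lowest). The central 200 bp of each site, compared in place of the whole, gave shares of 42.6% and a weighted 50.9%, again lower for LNCaP-only sites in all 7 deciles. By width, LNCaP-only sites had the lower share below 400 bp (37.9% against 46.4%), from 400 to 500 bp (45.2% against 51.6%) and from 500 to 600 bp (45.4% against 47.5%). At 600 bp and wider it was higher, 39.1% of 361 sites against 35.4% of 10626.

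The direction depended on the abl threshold. When only abl CREB1 peaks above the median score of their list could make a site shared, the sites missing from abl grew to 8786 and the difference at like score turned to 4.84 points. With as many abl as LNCaP peaks, taken by score, it was -4.78 points over 4754 sites.

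Where LNCaP-only sites overlapped FOXA1, the FOXA1 peaks mostly scored above the median of their own list. Their median FOXA1 score was 356.8, against 207.7 for all FOXA1 peaks, and 68% of the 1460 sites met a FOXA1 peak above that list median. FOXA1 peaks at shared sites had a median score of 302.6 and those at abl-only sites 448.6. At like CREB1 score the order of LNCaP-only and shared sites was again the reverse of the plain one: the FOXA1 score was lower at LNCaP-only sites in all 6 deciles with at least 20 such sites, for example 328.9 against 497.1 in the third decile.

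CREB1 and FOXA1 peaks that overlapped mostly had centres within 100 bp of each other. Their centres were a median of 60.5 bp apart at LNCaP-only sites and within 100 bp at 70% of them. At shared sites the median was 84.5 bp, with 55.7% within 100 bp, and at abl-only sites 64 bp, with 66.1%. Within deciles the gap between LNCaP-only and shared sites was small, for example 61.75 against 64 bp in the lowest and 56.5 against 71.5 bp in the fifth. LNCaP-only sites were also narrower (medians of 474 against 640 bp), and the part of width in these distances was not tested.

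**Figure D4:**
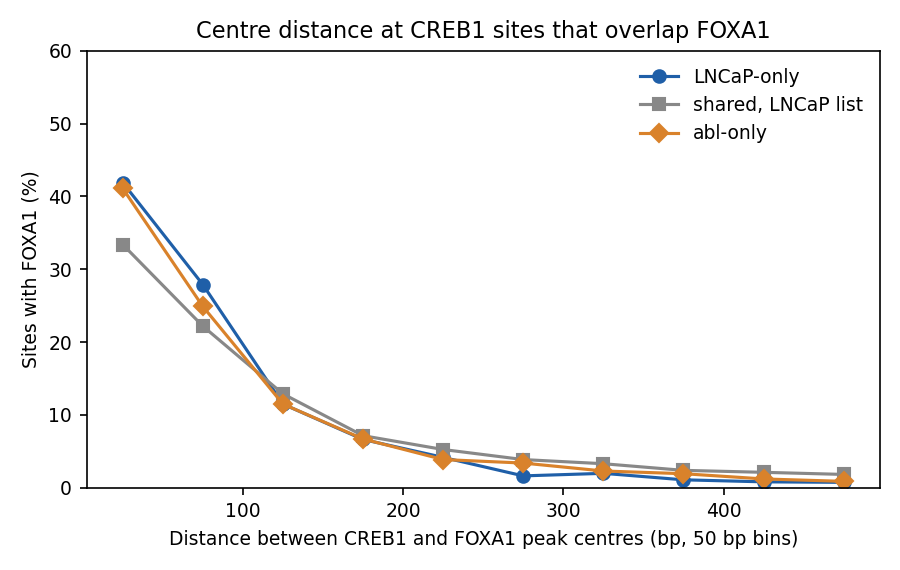
Distance between the centres of overlapping CREB1 and FOXA1 peaks (x axis, bp, in 50 bp bins) and the share of sites with FOXA1 in each bin (y axis, percent). The first bin holds 41.9% of LNCaP-only (blue), 33.4% of shared (grey) and 41.1% of abl-only sites (orange).

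Among the LNCaP-only sites that overlapped FOXA1, chr10:4700924-4701503 scored highest. It was followed by chr14:49255653-49256509 at 361.57, with 773 of its 857 bp inside a FOXA1 peak of score 387.15 and 689 kb to the nearest abl CREB1 peak. The site chr4:140052566-140053192 scored 357.09 and shared 352 bp with a FOXA1 peak of score 351.04. The site chr6:143399942-143400401 scored 356.22 and lay wholly inside a FOXA1 peak of score 156.58. The last of the 5, chr19:57442125-57442905, scored 342.4 and lay wholly inside a strong FOXA1 peak of score 866.68, with no abl CREB1 peak for 165 kb.

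Sites with and without FOXA1 differed little in CREB1 score (medians 99.48 and 102.7) or width (477 and 469 bp). Those with FOXA1 stood farther from other CREB1 peaks. Their median gap to the next LNCaP CREB1 peak was 41.7 kb against 29.5 kb without FOXA1, and 17.3% against 26.5% had one within 10 kb. LNCaP-only sites as a whole were more isolated than shared sites, with median gaps of 35.1 and 23.8 kb to the next LNCaP CREB1 peak, and by median gap this held in 6 of the 7 deciles with at least 50 LNCaP-only sites.

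Few LNCaP-only sites lay within 10 kb of another LNCaP-only site. Joining those with gaps of at most 10 kb left 3216 alone, 80 pairs and 5 groups of 3. Other sets of sites were not joined in this way for comparison. The groups of 3 lay at chr17:76165422-76181350, chr5:664366-673319, chr9:140330457-140340132, chr6:28602392-28611490 and chr4:49099049-49110905, and in the first 4 no abl CREB1 peak fell inside the span. Along the LNCaP list, runs of up to 7 LNCaP peaks in a row were all LNCaP-only. One of the 3 runs of 7 covered chr18:35158676-39529941, where abl had 2 CREB1 peaks and 40 FOXA1 peaks, and 4 of its 7 sites overlapped FOXA1. Another was chr18:69349818-70710902, with 1 abl CREB1 and 25 abl FOXA1 peaks, and 5 of its 7 sites overlapped FOXA1. The last, on chromosome 8, held no abl CREB1 and 28 abl FOXA1 peaks, and 2 of its 7 sites overlapped FOXA1.

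By chromosome, LNCaP-only sites made up a median of 15.6% of LNCaP peaks. Chromosome 18 stood at 31.2% (129 of 413), chromosome 9 at 21.1% (199 of 943), 13 at 20.7% and 21 at 20.1%. Chromosome Y had 33.9%, but of only 56 peaks. The lowest shares were 10.2% on chromosome 19, 10.7% on chromosome 2 and 10.9% on X and on 22. Chromosome 18 was 1 of the 2 chromosomes, with Y, on which LNCaP had more CREB1 peaks than abl (413 against 391). Over all chromosomes there were 0.796 LNCaP peaks per abl peak. These counts come from the same peak calls that chose the sites, so they are no separate evidence for the high share.

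**Figure D5:**
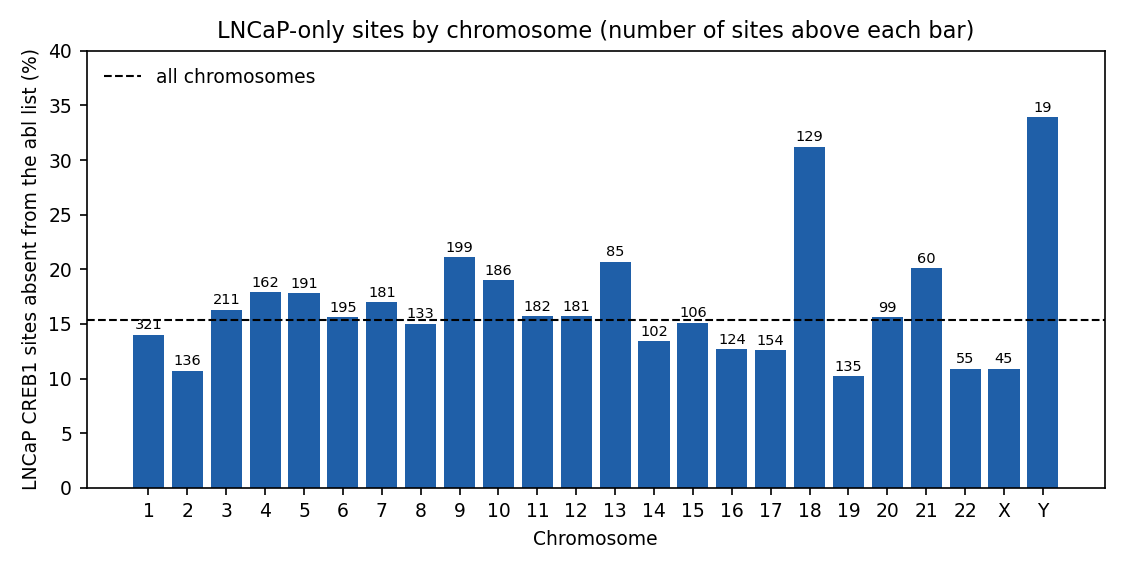
Share of LNCaP CREB1 peaks absent from the abl list (y axis, percent) on each chromosome (x axis), with the number of LNCaP-only sites above each bar and the share over all chromosomes as a dashed line at 15.4%. Chromosome 18 at 31.2% and Y at 33.9% stand highest.

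The chromosome 18 share was high at low and at high scores. Among peaks up to the list's median score it was 48.8% (122 of 250) against 29% over all chromosomes, and above the median 4.29% (7 of 163) against 1.85%. Of the abl CREB1 peaks on chromosome 18, 27.1% were absent from LNCaP, against 33.3% over all chromosomes. FOXA1 overlapped 41.1% of its LNCaP-only sites, near the overall 43.1%. How many copies of each chromosome the lines carry was not measured here, and copy number and binding cannot be told apart in peak lists.

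FOXA1 overlap of LNCaP-only sites ranged widely between chromosomes, from 60.2% on chromosome 3 and 54.5% on chromosome 5 to 23% on chromosome 19 and 0 of 19 sites on Y. Against shared sites of the same chromosome, with no regard to score, it was lower on 11 and higher on 13 of 24 chromosomes. Chromosome Y (0 of 19 against 54.1% of 37 shared sites), chromosome 17 (24.7% against 37.3%) and chromosome 8 (42.1% against 51%) were among the lower. Chromosome 13 (52.9% against 40.6%) and chromosome 3 (60.2% against 48.4%) were among the higher.

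In windows of 5 Mb that held at least 10 LNCaP peaks, LNCaP-only sites made up a median of 15.9% (quartiles 10% and 22.2%, 546 windows). The share passed 50% in 6 windows, named here because their values were seen to be high. The highest was 80% (8 of 10) on chromosome 18 from 35 to 40 Mb, where abl had 4 CREB1 and 60 FOXA1 peaks. This window holds the run of 7 at chr18:35158676-39529941 named above, so the window and the run are not separate observations. The share was 70% (7 of 10) on chromosome 21 from 10 to 15 Mb. It was 57.1% (8 of 14) both on chromosome 5 from 100 to 105 Mb and on chromosome 7 from 10 to 15 Mb. There abl had 106 and 144 FOXA1 peaks. The next were chromosome 4 from 190 to 195 Mb at 54.5% and chromosome 7 from 15 to 20 Mb at 52.9%. At 13 windows no LNCaP peak was LNCaP-only, among them 1 with 54 LNCaP peaks. Regions of repeated sequence were not masked, and their part in these shares was not tested.

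RNA from the siControl cells gives the RNA levels of the 2 mapped factors in each line, and protein was not measured here. These cells had received a control siRNA in charcoal-stripped serum. The labels of the ChIP samples name no siRNA, and the serum in which LNCaP was kept is not described as stripped. The RNA levels may thus differ from those in the cells used for ChIP-seq, which was not tested. CREB1 RNA stood at 81 and 85.3 CPM (reads scaled to the library's size and composition) in LNCaP and 78.8 and 79.7 in abl. The libraries did not overlap, but the log2 difference of abl against LNCaP was only -0.07 ± 0.09 (SE, edgeR adjusted p = 0.541). FOXA1 stood at 799 and 695 CPM in LNCaP and 556 and 504 in abl, lower in abl by a log2 difference of -0.49 ± 0.08 (edgeR adjusted p = 0.000129). Calls are at an adjusted p below 0.05 over the 15550 genes tested, of which 30.5% were called higher and 33.1% lower in abl.

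Of 21 tested genes of the CREB/ATF family and its co-activators, 12 were higher in abl and 2 lower. Over all genes tested, 30.5% were higher and 33.1% lower. The median log2 difference of the 21 was 0.31, against -0.019 over all genes. ATF4, a stress-response factor of the family, rose from 237 and 249 CPM in LNCaP to 1340 and 1310 in abl (2.44 ± 0.06 on the log2 scale). ATF1, with CREM the closest relative of CREB1, stood at 25.1 and 30.2 CPM in LNCaP and 45.3 and 54.4 in abl (log2 difference 0.84 ± 0.11, adjusted p = 1.57e-05 in edgeR). CREM, at 16.4 and 16.7 against 15.7 and 14.6 CPM, did not pass the test (edgeR adjusted p = 0.38). The co-activator CRTC1 was lower in abl, at 77 and 73.9 against 39.3 and 37.4 CPM (-0.97 ± 0.09), and CREB5 was lower too, at 6.83 and 6.41 against 0.5 and 0.446 CPM (-3.75 ± 0.22). The acetyltransferases CREBBP and EP300 did not pass, with adjusted p of 0.514 and 0.299 in edgeR.

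Of 13 tested forkhead factors, steroid receptors and their partners, 5 were higher in abl and 6 lower, with a median log2 difference of -0.13. Since 30.5% of all genes tested were higher and 33.1% lower, these counts say little about this list. NR3C1, the glucocorticoid receptor, rose from 2.06 and 1.6 CPM in LNCaP to 88.4 and 105 in abl (log2 difference 5.66 ± 0.15). HOXB13 and the co-repressor TLE3 were lower in abl, with log2 differences of -0.88 ± 0.08 and -0.50 ± 0.09. Whether any of these levels bears on the LNCaP-only sites was not tested.

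The siControl libraries held 9092597 to 37314039 reads assigned to genes. All 12 prostate luminal markers were tested, of which 3 were higher and 6 lower in abl. Over all genes tested the shares were 30.5% and 33.1%. The levels of the 12 summed to 4830 and 4600 CPM in LNCaP and 4060 and 3950 in abl. Sums over a list here use CPM scaled to library size alone, unlike the CPM of single genes. The gene of prostate-specific antigen, KLK3, stood at 70.6 and 73.9 CPM in LNCaP and at 0.361 and 0.111 in abl (log2 difference -7.84 ± 0.38). Basal markers summed to 15.8 to 17.4 CPM over the 4 libraries, and none of the 3 tested was called. Most of this sum was ITGB4 (14.7 and 14.4 in LNCaP, 15.1 and 14.9 in abl). KRT14 stood at 0.0361 and 0.192 CPM in LNCaP and 0 in abl, and KRT5, KRT15 and TP63 had too few counts to be tested. Fibroblast markers summed to 121 and 120 CPM in LNCaP and 21.5 and 18.9 in abl. Most of the LNCaP sum was COL1A1 (53.4 and 61.6) and VIM (60.2 and 49.5). Of the 5 tested, 3 were lower in abl, against 33.1% of all genes tested. The other 2, COL3A1 and PDGFRB, were not called (edgeR adjusted p of 0.931 and 0.447), and COL1A2 and DCN had too few counts to be tested. Neuroendocrine markers summed to 107 and 110 CPM against 83.3 and 80.6, most of it ENO2 (105 and 105 against 54.8 and 50.1), whereas NCAM1 was higher in abl (0.361 and 0.32 against 30.3 and 29.4 CPM, log2 difference 6.41 ± 0.25). Blood and endothelial markers summed to 37.6 and 29.7 CPM in LNCaP and 8.42 and 1.98 in abl. Most of the LNCaP sum was the endothelial gene VWF, at 30.7 and 27.7 CPM against 0.778 and 0 in abl. The other endothelial genes of the list did not follow it. PECAM1 stood at 0.722 and 0.897 against 0.722 and 0.78 CPM (edgeR adjusted p = 0.848), and CDH5 had at most 1 count in any library. The leukocyte gene PTPRC was higher in abl, at 0.325 and 0 against 1.78 and 0.892 CPM (log2 difference 2.87 ± 0.64, adjusted p = 0.00161 in edgeR). It rested on 9 and 0 counts in LNCaP and 64 and 8 in abl, higher in the first library of each line. A library made after siRNA against CREB1 or FOXA1 had up to 86. The neutrophil genes CSF3R and S100A8 had 76 and 20 counts in the first LNCaP library and 87 and 20 in the first abl library, against at most 2 in the second library of either line. S100A9 had 62 and 4 counts in LNCaP and 88 and 1 in abl, with up to 96 in a library made after siRNA against CREB1 or FOXA1. The part of these markers in the differences between lines was not tested. The labels do not say whether the 2 libraries of a group came from separate cultures, so the p-values may measure technical spread only.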

How the data were processed

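The authors deposited 1 peak list, with a score per peak, for each of 3 ChIP-seq samples. The submitters' processing notes name Bowtie 1.0.0, MACS 1.4.2 and hg19. Which input control and threshold served, and whether libraries were pooled, is not given in the sources used here. Lists were compared in Python 3.11.15 by overlaps of at least 1 bp, checked against bedtools on simulated intervals. All listed peaks were used, with no region of the genome masked. Deciles are of the score within a list, and printed starts are 1-based.

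For RNA the authors deposited read counts per gene, and the same submitters' processing notes name TopHat2 2.0.8 and HTSeq 0.5.3p9. Reads in no feature (54.85% to 58.25%) and ambiguous reads (0.77% to 0.92%) were left out. All 12 libraries entered 1 edgeR 4.0.16 quasi-likelihood fit (R 4.3.3, TMM, filterByExpr, 15550 of 23230 genes), tested on simulated data, with Benjamini-Hochberg adjustment over all tested genes. The SE is the absolute log2 change over the square root of F. DESeq2 1.42.0 was an alternative. The 8 ChIP-seq samples made after siRNA were not analysed here.

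The planned comparisons of genes, promoters and motifs at the sites need an hg19 genome and annotation, which were not used here, so no site is tied to a gene and no sequence is printed. The planned fit of abl against LNCaP under siControl was instead read for CREB1, FOXA1 and gene lists, a choice made after the data were seen. The sites and lists were chosen with earlier results of these data known. Named sites are the 10 with the highest scores, the 5 highest with FOXA1, the 5 nearest to an abl CREB1 peak and the 5 shared sites with the fewest shared bases. Groups, runs and windows of sites, and the genes other than CREB1 and FOXA1, were picked after their values were seen. Some genes of the lists are not reported here.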

Additional observations from a re-analysis of the deposited data

How the results depend on the processing

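The number of LNCaP-only sites was 3391, and 3 of 5 alternatives stayed within 1.5 times of it. It was 203 for LNCaP peaks above their list's median score and 8786 when only abl peaks above their median could make a site shared, by construction in both cases. The FOXA1 share of 43.1% became 45.1% when FOXA1 peaks within 500 bp counted, 29.3% with FOXA1 peaks above their median score, 19.7% for LNCaP peaks above their median score, 49.8% with abl peaks above their median and 46.3% with as many abl as LNCaP peaks by score. The difference at like score, -8.89 points, kept its sign under 9 of 10 alternatives. It was -4.78 with as many abl as LNCaP peaks and -17.6 above the LNCaP median, and it reversed to 4.84 with abl peaks above their median; the cause was not tested. The chromosome 18 share of 31.2% was 4.29% above the LNCaP median, 61% with abl peaks above their median and 40.7% with as many abl as LNCaP peaks, against 1.85%, 40% and 21.6% over all chromosomes. Equal list length, the central 200 bp, the comparison at like score, the chromosome 18 share, the FOXA1 share under other definitions of abl peaks and all RNA alternatives were chosen after seeing the data.

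The CREB1 log2 difference ran from -0.09 to -0.03 over 9 alternatives (edgeR or DESeq2 adjusted p 0.489 to 0.808) and that of FOXA1 from -0.59 to -0.37 (adjusted p 3.59e-07 to 0.00293), and no alternative changed either call. Between 8306 and 9551 genes were called with 1 siControl library left out. With the replicate number as a block, the replicate block fit called 10002 genes between the lines against 9896 without it. Library numbers were not taken as pairs, since deviations of equally numbered libraries correlated above 0.1 in 3 of 15 group pairs (-0.05 to 0.23). Promoter windows, motifs and calls at genes near the sites were not run for lack of an hg19 reference. Depth of the ChIP libraries is unknown, so a missing peak cannot be told from one below the threshold.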
